A study of Mus musculus with 12 samples.

Results

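The genes described here encode the proteins of the cytosolic ribosome, the particle that translates messenger RNA (mRNA) into protein. They were chosen by name: every gene whose symbol is Rpl or Rps with a number and at most one letter a, x or l, together with Rplp0, Rplp1, Rplp2 and Rpsa, leaving out Rps27l and symbols of numbered pseudogenes. This gave 75 of the 14610 genes listed in the data, 46 of the large subunit and 29 of the small subunit. Rps4l among them was chosen by name but has no protein-coding transcript in the GENCODE M21 annotation. Rps12 and Rps27 had no listed values, and Rps3a1 and Fau, which also encode ribosomal proteins, lie outside the naming rule and are given as context only.

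Polyadenylated RNA was sequenced from mouse neural stem cells in culture, transformed with PDGFB, a platelet-derived growth factor ligand, as a model of diffuse intrinsic pontine glioma, a childhood tumour of the brainstem. The groups were K27M cells under EPZ6438, K27M cells in DMSO, H3WT cells under EPZ6438 and H3WT cells in DMSO, with 3 libraries each. K27M cells expressed histone H3.3 with methionine in place of lysine 27, and H3WT cells expressed wild-type H3.3; all carried the PDGFB driver. EPZ6438 blocks EZH2, the enzyme that methylates lysine 27 of histone H3, and was given at 3 µM for 12 days against DMSO, its solvent. The cells grew on laminin and poly-D-lysine in neural stem cell medium with epidermal and basic fibroblast growth factors, so they model the tumour without its host tissue.

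Ribosomal proteins sit at fixed places on ribosomal RNA or, as Rplp1 and Rplp2 do, on another ribosomal protein: the small subunit reads the mRNA and the large subunit joins amino acids. The mRNAs of ribosomal proteins typically begin with a C followed by a run of pyrimidines, the terminal oligopyrimidine (TOP) motif, through which the growth-controlling kinase complex mTORC1 sets how strongly they are translated. Ribosomal proteins that are not built into ribosomes, above all RPL5 and RPL11, can bind the ubiquitin ligase MDM2 and thereby stabilise p53. RNA levels, as measured here, therefore show only one layer of ribosome production.

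The libraries held 7902281 to 24089044 estimated counts. The K27M DMSO libraries were the deepest, with 22053599 to 24089044, and all others held 7902281 to 15762228. Ezh2 had 197 ± 4.53 CPM (counts scaled to the same library total) in K27M DMSO libraries and 116 ± 13.0 CPM in H3WT DMSO libraries, and Cdkn2a, which encodes cell cycle inhibitors, had 14.1 ± 0.582 CPM in K27M DMSO and 60.8 ± 4.89 CPM in H3WT DMSO libraries (SD, n = 3 each). The K27M base change itself cannot be read from gene counts. All 10 neural stem cell markers were listed, with summed levels of 7125 to 8266 CPM over the 12 libraries, while 2 of 8 microglia markers (1.67 to 3.36 CPM in sum), 1 of 5 endothelial markers and 0 of 4 erythroid markers were listed. Replicate 1 of H3WT DMSO stood apart from replicates 2 and 3 of its group, with a chi-square per ribosomal protein gene of 13.4 and 10.4, against 5.72 between those 2. Replicate 2 of H3WT EPZ6438 likewise stood apart, with 11.6 and 9.45 from replicates 1 and 3 of its group, against 2.62 between those 2. Whether the replicates came from separate cultures is not said in the labels; the spread behind each p-value is that between these libraries and may be technical. In bulk RNA, fewer cells of a kind and less RNA per cell cannot be told apart.

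The ribosomal protein genes together took about 1% of the counts of each library. Over the genes listed in all tables, their share was 1.03, 1.07 and 1.07% in K27M EPZ6438 libraries and 0.976, 0.984 and 1.004% in K27M DMSO libraries. It was 1.02, 1.13 and 1.02% in H3WT EPZ6438 libraries and 1.04, 1.15 and 1.10% in H3WT DMSO libraries. The 3 K27M DMSO libraries, which were also the deepest, thus lay below all others, and the H3WT EPZ6438 and H3WT DMSO libraries overlapped. Near-identical copies can split the reads of these genes: 70 of the 75 match another annotated gene at 95% identity or more over at least 200 bases. Rps4l, without a coding transcript to search with, was not searched. The 13 such copies listed in all tables, 8 of them pseudogenes, belong to 12 of the genes and held 0.0081 to 0.0133% of counts.

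Levels between genes differed widely. Normalized over the 12 libraries, 74 genes had a median of 60.4 CPM, from 0.619 CPM for Rpl23a, which lies at the exit of the peptide tunnel, to 1143 CPM for Rpl4, whose loop lines that tunnel. Of these, 25 were over 100 CPM and 14 under 10 CPM, and the 10 highest held 56.5% of the sum. Per kilobase of transcript the median was 65.3 CPM per kb, with the highest level for Rps9 at 895 and for Rpl8 at 886.5 CPM per kb. The level per kilobase was lower in genes with more near-identical copies: 26 genes with up to 3 copies had a median of 247 CPM per kb, and 19 genes with 10 or more copies had a median of 15.8 CPM per kb. Across the 74 genes, which are not independent replicates, the Spearman correlation of copies and CPM per kb was -0.52. Levels of different genes are therefore given as a description only.

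**Figure D1:**
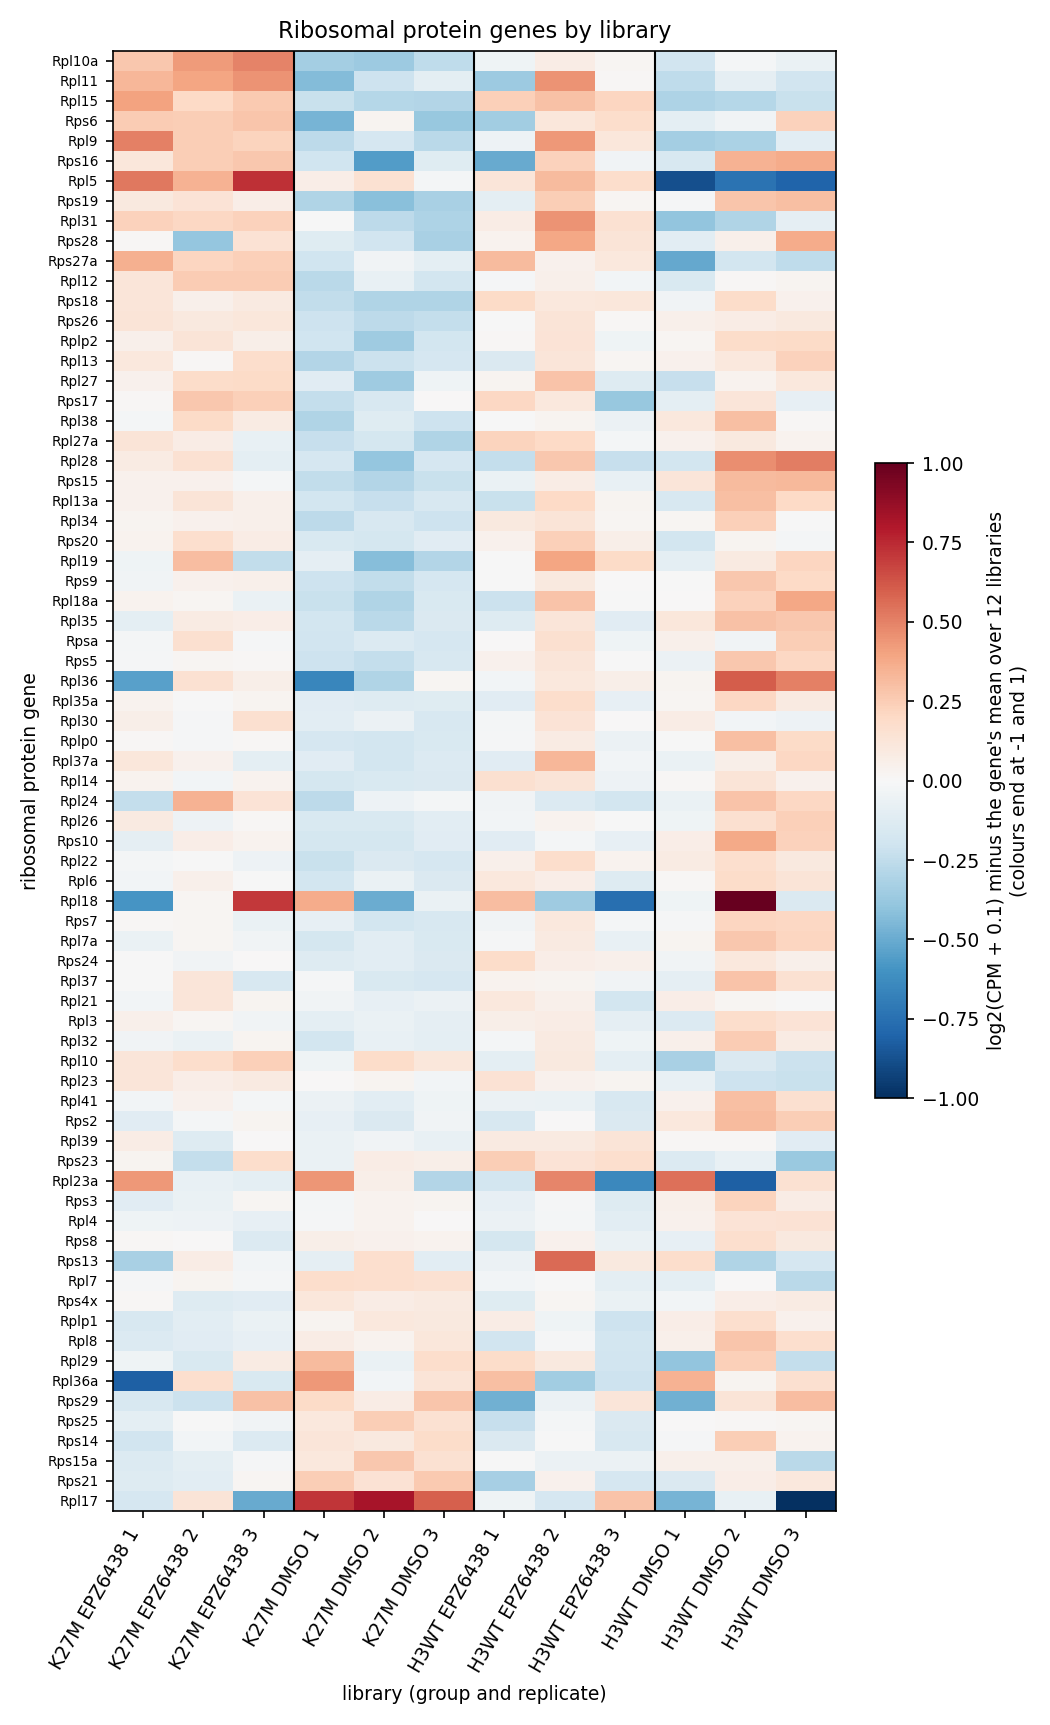
Heat map of 73 ribosomal protein genes (one per line) in the 12 libraries (columns, K27M EPZ6438, K27M DMSO, H3WT EPZ6438 and H3WT DMSO), as log2(CPM + 0.1) minus the gene's mean, with colours ending at -1 and 1. Genes are ordered by their log2 fold change of EPZ6438 over DMSO in K27M cells, from Rpl10a at 0.71 to Rpl17 at -0.89.

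K27M against H3WT cells in DMSO asked what the mutant histone did without the inhibitor. More ribosomal protein genes fell than rose: with edgeR's quasi-likelihood test and Benjamini-Hochberg adjustment (a call at an adjusted p below 0.05), 31 of 75 fell, against 30.4% of all 13129 genes tested, and 9 rose, against 29.8% of all genes. The median log2 fold change was -0.13 over the ribosomal protein genes and -0.003 over all genes. Those that fell did so by a median of 1.21-fold. In the large subunit 20 of 46 fell and 5 rose, with a median of -0.17, and in the small subunit 11 of 29 fell and 4 rose, with a median of -0.07. The count of falls was 19 without K27M DMSO replicate 1 or 3 (21.3 and 23.3% of all genes then fell), and that of rises was 5 without K27M DMSO replicate 3 (21.02% of all genes).

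Rps19 (chr7:24884371-24889806, plus strand), a small subunit protein whose loss causes Diamond-Blackfan anaemia in humans, had 120.4, 111 and 119 CPM in the K27M DMSO libraries and 147, 179.5 and 182 CPM in the H3WT DMSO libraries. The groups did not overlap, and the log2 fold change was -0.50 (SE 0.0718, adjusted p = 0.00273). This call held under each of 21 other settings of the analysis. Among these, effects centred on the median gene had no p-value, so there only a turned sign could lose a call. Rps15, which lies near the decoding centre, had 279.9, 271 and 284 CPM in K27M DMSO libraries and 359.9, 412 and 414 CPM in H3WT DMSO libraries, again without overlap. Its log2 fold change was -0.47 (SE 0.0465, adjusted p = 0.0011), and -0.05 with the trends of GC content and length both removed (adjusted p = 0.301). Rpl22 fell by 0.26 (adjusted p = 0.00322), or stood at -0.05 on its most abundant transcript alone (adjusted p = 0.405), and Rps26, which contacts the mRNA upstream of the start codon, fell by 0.27 on the log2 scale (adjusted p = 0.00258).

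The ribosomal stalk, which recruits the translation GTPases, did not move as one. Rplp0, its base, had 699, 691.5 and 707 CPM in K27M DMSO libraries and 785, 969 and 896 CPM in H3WT DMSO libraries, with no overlap (log2 fold change -0.30, SE 0.0573, adjusted p = 0.00684). With the GC trend removed Rplp0 stood at -0.05 (adjusted p = 0.251). Rplp2 fell by 0.34 (adjusted p = 0.00456), or stood at -0.06 with both trends removed (adjusted p = 0.383). For Rplp1, the partner of Rplp2 in the stalk dimer, the groups overlapped, and it did not pass (log2 fold change 0.02, adjusted p = 0.744).

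The 2 largest falls were in genes of low level. Rpl36 had 2.82 ± 0.665 CPM in K27M DMSO libraries and 4.46 ± 0.784 CPM in H3WT DMSO libraries (log2 fold change -0.66, SE 0.226, adjusted p = 0.0432). Its call was lost without H3WT DMSO replicate 2 or 3 or K27M DMSO replicate 1 or 2, at adjusted p-values of 0.109 to 0.129. Rpl28 had 10.9 ± 0.744 CPM in K27M DMSO libraries and 15.7 ± 3.43 CPM in H3WT DMSO libraries (log2 fold change -0.52, SE 0.166, adjusted p = 0.0337), and its call was lost without any library but H3WT DMSO replicate 1, at 0.0748 to 0.115. Rpl38, which in mice is needed for the translation of Hox mRNAs, fell by 0.31 (adjusted p = 0.0229); it was lost without H3WT DMSO replicate 2 or K27M DMSO replicate 1 or 3, at 0.0575 to 0.0821.

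Rpl5 (chr5:107900502-107909005, plus strand) rose against the direction of the set. It encodes the protein that carries 5S ribosomal RNA into the large subunit and had 31.5, 33.4 and 29.7 CPM in K27M DMSO libraries and 16.3, 17.97 and 17.3 CPM in H3WT DMSO libraries. The groups were far apart, and the log2 fold change was 0.89 (SE 0.0634, adjusted p = 0.000493). Rpl10, which is added last to the large subunit, rose by 0.36 (adjusted p = 0.0117). With each library's trend with GC content removed, Rpl5 stood at 0.18 (adjusted p = 0.29) and Rpl10 at 0.01 (adjusted p = 0.949), so neither call held. Rpl17 had 6.498, 7.01 and 5.97 CPM in K27M DMSO libraries and 2.81, 3.71 and 1.73 CPM in H3WT DMSO libraries (log2 fold change 1.31, SE 0.248, adjusted p = 0.00651). With the counts of its named pseudogenes added, Rpl17 stood at -0.07 (adjusted p = 0.496), so this value depends on how reads were split between near-identical copies. Rps4l, a copy of the Rps4 family, rose by 1.45 (adjusted p = 0.00846) on 57 counts over the 3 K27M DMSO libraries and 12 counts over the 3 H3WT DMSO libraries.

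Among the other fixed names, Rpsa, the laminin receptor protein of the small subunit, stood at -0.23 on the log2 scale (adjusted p = 0.0742), and Rps6, the substrate of S6 kinase, -0.28 (adjusted p = 0.273). Rpl3, at the peptidyl transferase centre, had -0.11 and Rpl11, the partner of Rpl5, -0.16. Rps4x had 0.09 and Rps27a, made as a fusion with ubiquitin, 0.24. None of these 6 passed. Rpsa passed without H3WT DMSO replicate 2 (log2 fold change -0.30, adjusted p = 0.0333) and Rpl3 without H3WT DMSO replicate 1 (-0.18, adjusted p = 0.00314).

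**Figure D2:**
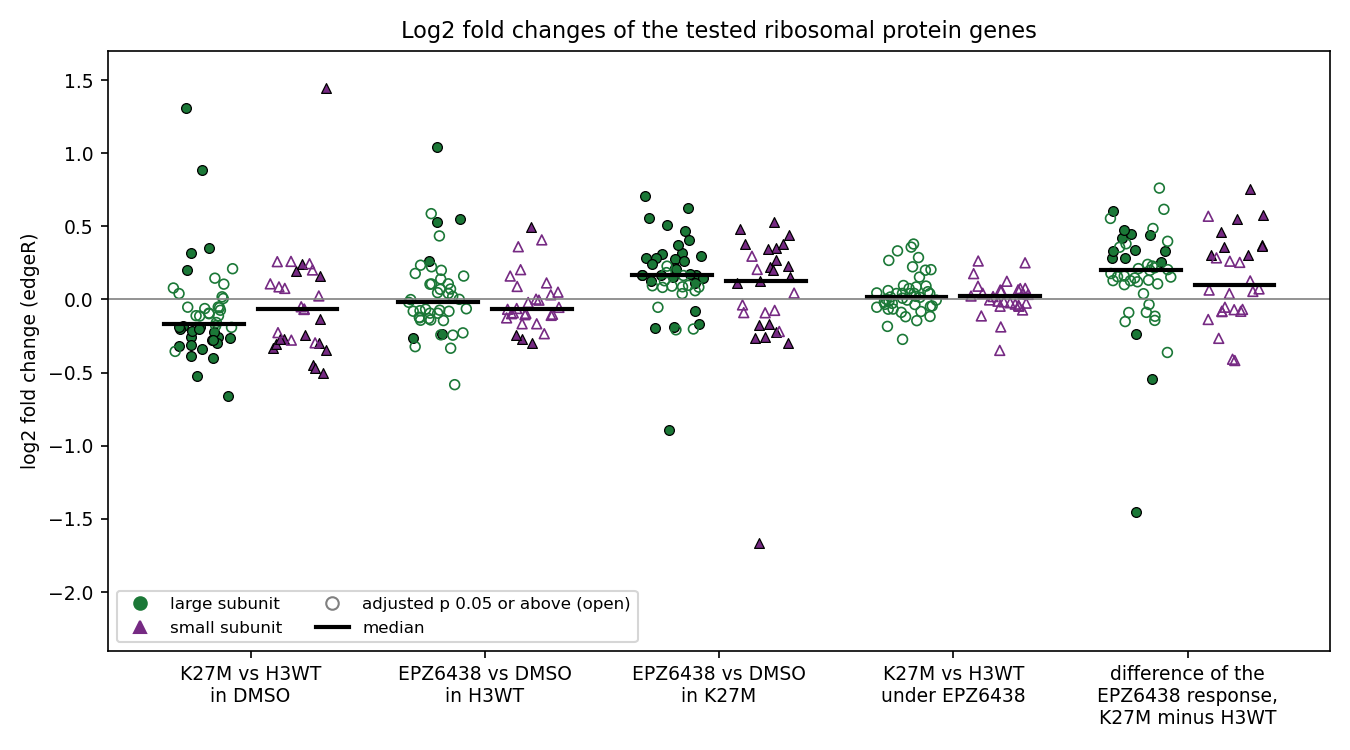
Log2 fold changes of each tested ribosomal protein gene in the 4 pairs of groups and in the difference of the inhibitor response (vertical axis; circles, large subunit; triangles, small subunit; open symbols, adjusted p at or above 0.05; lines, medians). Medians of the large subunit lay at -0.17 for K27M against H3WT in DMSO and at 0.17 for EPZ6438 against DMSO in K27M cells, and no gene passed between K27M and H3WT cells under EPZ6438.

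EPZ6438 against DMSO in H3WT cells asked what EZH2 inhibition did with wild-type H3.3. Few ribosomal protein genes passed: 5 of 73 rose, against 21.4% of all 12870 genes tested, and 5 fell, against 20.7% of all genes. The median log2 fold change was -0.06, against 0.04 over all genes. Both counts moved with single libraries. The number of falls was 17 without H3WT DMSO replicate 1 (29.4% of all genes then fell) and 8 without H3WT EPZ6438 replicate 2 (20.8% of all genes), the 2 libraries that stood apart. It was 1 without H3WT DMSO replicate 2 (14.6% of all genes) and 0 without H3WT DMSO replicate 3 or H3WT EPZ6438 replicate 1 or 3 (12.9 to 14.1% of all genes). Rises numbered 3 without H3WT DMSO replicate 2 or 3 or H3WT EPZ6438 replicate 2 (12.9 to 17.6% of all genes). They numbered 2 without H3WT EPZ6438 replicate 3 (13.15% of all genes).

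Rpl5 rose most, with 32.7, 37.4 and 33.9 CPM in H3WT EPZ6438 libraries and 16.3, 17.97 and 17.3 CPM in H3WT DMSO libraries. All treated libraries lay above all controls (log2 fold change 1.04, SE 0.0922, adjusted p = 0.000239), and the call held under each of 21 other settings. Rpl15 (chr14:18267823-18271391, minus strand), a core protein of the large subunit, had 67.4, 70.0 and 66.2 CPM in H3WT EPZ6438 libraries and 46.1, 46.9 and 49.0 CPM in H3WT DMSO libraries (log2 fold change 0.55, SE 0.0667, adjusted p = 0.000947). With the GC trend removed Rpl15 stood at 0.12 (adjusted p = 0.441). Rpl31, near the exit of the peptide tunnel, rose by 0.53 (adjusted p = 0.0249), and its call was lost without H3WT DMSO replicate 2 or H3WT EPZ6438 replicate 2 or 3, at 0.0576 to 0.0769. Rps27a rose by 0.50 (adjusted p = 0.0176); it was lost without H3WT DMSO replicate 3 or H3WT EPZ6438 replicate 1 or 3, at 0.05 to 0.0777, and its log2 fold change was near 0 over protein-coding transcripts alone (adjusted p = 0.991).

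The 4 largest falls were small. Rps2, which guards decoding accuracy, fell by 0.30 (adjusted p = 0.0164) and Rps10, near the mRNA entry side, by 0.27 (adjusted p = 0.0342). Rpl8 fell by 0.26 (adjusted p = 0.0291) and Rps15 by 0.24 (adjusted p = 0.0294). None overlapped between groups. Each lost its call without H3WT DMSO replicate 3 or H3WT EPZ6438 replicate 1 or 3, and Rps10, Rpl8 and Rps15 also without H3WT DMSO replicate 2, at adjusted p-values of 0.0592 to 0.108 over these. The stalk genes Rplp0, Rplp1 and Rplp2 had log2 fold changes of -0.13, -0.12 and -0.07 and did not pass (adjusted p = 0.196, 0.241 and 0.464); Rplp0 passed without H3WT DMSO replicate 1 (-0.24, adjusted p = 0.0104). Rps19 had -0.10 (adjusted p = 0.499) and Rpl22 0.00 (adjusted p = 0.99). Rpl10 had 0.23 and Rpl11 0.22 (adjusted p = 0.108 and 0.405), and Rpsa, Rps6, Rps4x, Rpl3 and Rpl38 lay between -0.13 and -0.00, all without passing.

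EPZ6438 against DMSO in K27M cells asked what EZH2 inhibition did with the mutant histone. Here most of the set rose: 40 of 75 genes were higher under EPZ6438, against 28.9% of all 13503 genes tested, and 12 were lower, against 27.3% of all genes. The median log2 fold change was 0.16 over the ribosomal protein genes and 0.01 over all genes. Genes that rose did so by a median of 1.21-fold. In the large subunit 26 of 46 rose and 5 fell, and in the small subunit 14 of 29 rose and 7 fell. With 1 library left out at a time, 31 to 37 rose (24.6 to 27.5% of all genes) and 11 or 12 fell (24.0 to 27.8%).

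Rpl10a (chr17:28328471-28331033, plus strand) rose most. It forms part of the L1 stalk, where used transfer RNA leaves, and had 58.5, 65.5 and 68.6 CPM in K27M EPZ6438 libraries and 38.3, 37.8 and 40.7 CPM in K27M DMSO libraries. The groups did not overlap, and the log2 fold change was 0.71 (SE 0.0659, adjusted p = 1.24e-05). Most of its counts lay in transcripts that keep an intron, and over protein-coding transcripts alone Rpl10a stood at -0.31 (adjusted p = 0.487). Rpl11 had 9.71, 10.2 and 10.5 CPM in K27M EPZ6438 libraries and 5.66, 6.66 and 7.19 CPM in K27M DMSO libraries (log2 fold change 0.63, SE 0.115, adjusted p = 0.00116), and 0.29 over protein-coding transcripts alone (adjusted p = 0.186).

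Rpl15 had 75.6, 65.6 and 68.7 CPM in K27M EPZ6438 libraries and 49.0, 46.8 and 46.5 CPM in K27M DMSO libraries. It rose by 0.56 (SE 0.0528, adjusted p = 1.4e-05). Rpl5 had 43.4, 38.4 and 50.1 CPM in K27M EPZ6438 libraries and 31.5, 33.4 and 29.7 CPM in K27M DMSO libraries, a rise of 0.47 (SE 0.0831, adjusted p = 0.000907). Rps19 had 159, 163 and 155.5 CPM in K27M EPZ6438 libraries and 120.4, 111 and 119 CPM in K27M DMSO libraries, a rise of 0.44 (SE 0.0414, adjusted p = 1.28e-05). In these 3 genes every treated library lay above every control, and each call held under all 21 other settings. Rps26 rose by 0.34 (adjusted p = 8.78e-06) and Rps15 by 0.27 (adjusted p = 6.46e-05). Rps6 rose by 0.53 (adjusted p = 0.0441) at 3.12 ± 0.0493 CPM in K27M EPZ6438 libraries and 2.16 ± 0.427 CPM in K27M DMSO libraries; its call was lost without any library but K27M DMSO replicate 2, at 0.0838 to 0.128.

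In the stalk, Rplp0 and Rplp2 rose while Rplp1 fell. Rplp0 had 791.5, 781 and 792 CPM in K27M EPZ6438 libraries and 699, 691.5 and 707 CPM in K27M DMSO libraries (log2 fold change 0.17, SE 0.0233, adjusted p = 0.000209), but stood at -0.05 with the GC trend removed (adjusted p = 0.0911). Rplp2 rose by 0.32 (adjusted p = 0.000416). Rplp1 had 263, 274 and 281 CPM in K27M EPZ6438 libraries and 299.5, 315 and 313.5 CPM in K27M DMSO libraries, with no overlap, and fell by 0.19 (SE 0.0382, adjusted p = 0.00197) under this and all 21 other settings.

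Other falls were found in both subunits. Rps21, a small subunit protein, had 94.7, 96.1 and 105 CPM in K27M EPZ6438 libraries and 123, 114 and 124 CPM in K27M DMSO libraries (log2 fold change -0.30, SE 0.0517, adjusted p = 0.000764). Rps15a had 143, 147 and 156 CPM in K27M EPZ6438 libraries and 169.5, 189.6 and 174.5 CPM in K27M DMSO libraries (log2 fold change -0.27, SE 0.0512, adjusted p = 0.00159). Both calls held under all 21 other settings. Rps14, Rps25, Rpl8, Rpl7 and Rpl4 also fell, by 0.26, 0.22, 0.19, 0.17 and 0.08. Rps4x fell by 0.17 (adjusted p = 0.00456). Rps4l fell by 1.66 (adjusted p = 0.00995) on 10 counts over the 3 K27M EPZ6438 libraries and 57 over the 3 K27M DMSO libraries, and Rpl17 fell by 0.89 (adjusted p = 0.00114) but stood at 0.14 with its pseudogenes added (adjusted p = 0.258).

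Rps27a rose by 0.38, Rpl38 by 0.29 and Rpl22 by 0.14 (adjusted p = 0.00332, 0.00788 and 0.00372). Rpl38 stood at 0.12 with the GC trend removed (adjusted p = 0.129) and at 0.23 on its most abundant transcript (adjusted p = 0.103). Over protein-coding transcripts alone Rps27a stood at 0.19 (adjusted p = 0.338), and Rpl22 fell by 0.18 (adjusted p = 0.012) when only its transcript with most counts was used. Rpsa, Rpl3 and Rpl10 had log2 fold changes of 0.21, 0.09 and 0.08 and did not pass (adjusted p = 0.0646, 0.0609 and 0.388). Over protein-coding transcripts alone Rpl10 stood at -1.99 (adjusted p = 0.000817) and Rpl3 at -7.585 (adjusted p = 6.13e-06), where the coding transcript of Rpl3 was estimated at or near 0 under EPZ6438.

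**Figure D3:**
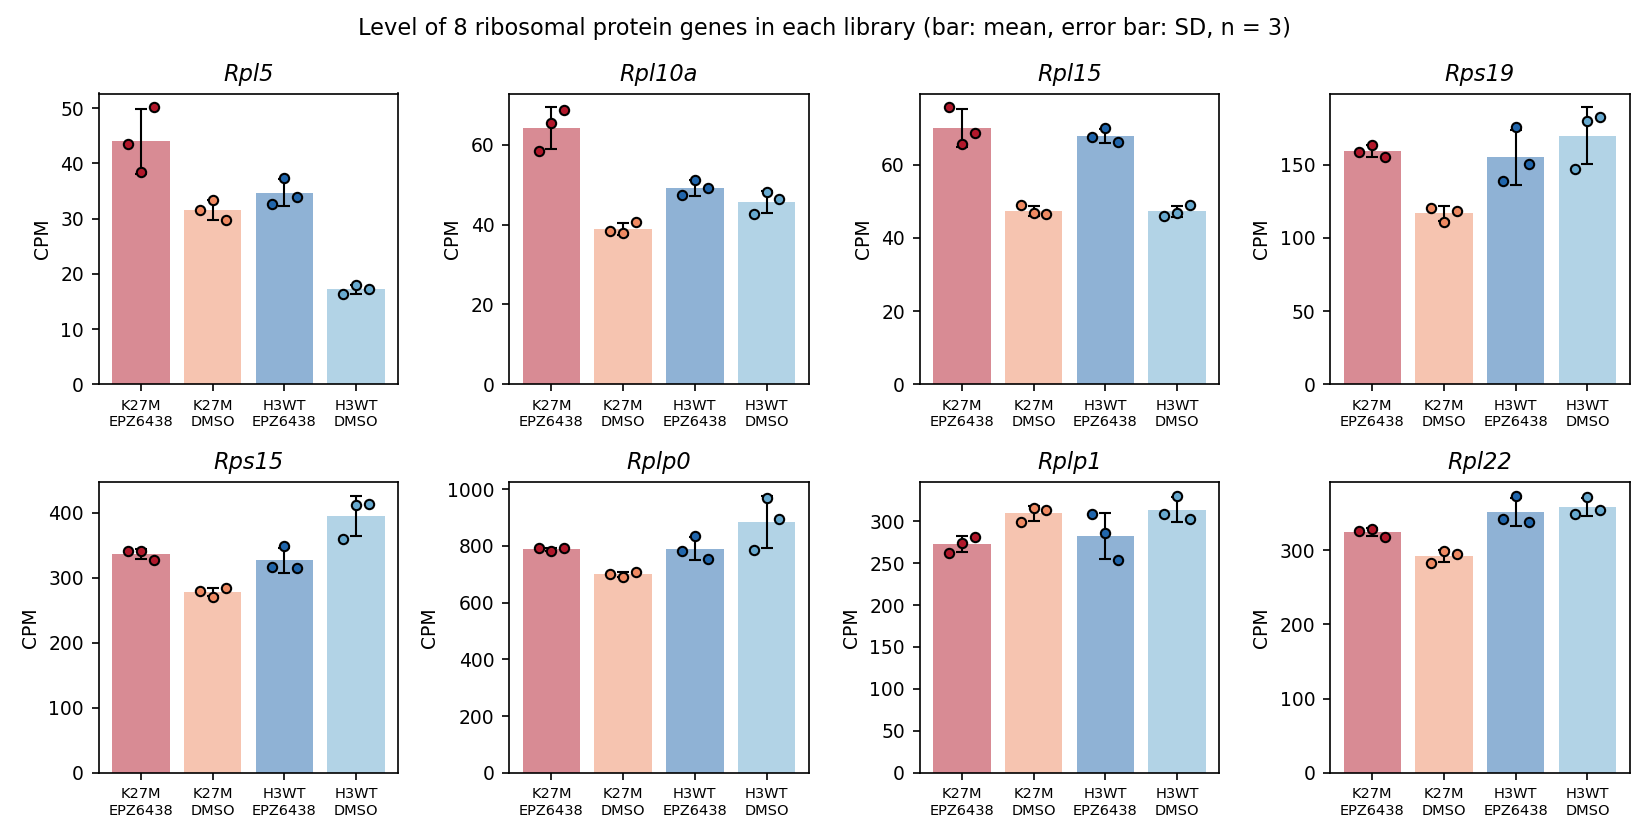
Levels of 8 ribosomal protein genes (vertical axis, CPM normalized over 12 libraries; bars, means; error bars, SD over n = 3 libraries; points, libraries) in K27M EPZ6438, K27M DMSO, H3WT EPZ6438 and H3WT DMSO cells. Rps19 and Rps15 were lowest in K27M DMSO libraries, Rpl5 was lowest in H3WT DMSO libraries, and Rplp1 was lower in K27M EPZ6438 than in K27M DMSO libraries.

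Whether the inhibitor acted differently in the 2 genotypes was tested as an interaction over all 12 libraries. The response was higher in K27M than in H3WT cells for 20 of 74 ribosomal protein genes, against 20% of all 13040 genes tested, and lower for 3, against 15.8% of all genes. The median difference was 0.19 on the log2 scale, against 0.02 over all genes. In the large subunit 11 of 46 were higher and 3 lower, and in the small subunit 9 of 28 higher and 0 lower. The count of higher responses was 12 without K27M DMSO replicate 1 or K27M EPZ6438 replicate 3 and 13 without H3WT DMSO replicate 2 or H3WT EPZ6438 replicate 1 or 3. The share of all genes with a higher response was then 13.6 to 14.1%. The count of lower responses was 5 without H3WT DMSO replicate 1 (28.9% of all genes).

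Rps19 differed by 0.58 (SE 0.132, adjusted p = 0.00775). Its call alone among the named differences here held under all 27 other settings, with the centred effects judged by sign. Its fold change between EPZ6438 and DMSO was 0.44 in K27M cells and -0.10 in H3WT cells on the log2 scale. Rpl10a differed by 0.61 (SE 0.0997, adjusted p = 0.00155), Rps15 by 0.55 (SE 0.0846, adjusted p = 0.00108), Rplp2 by 0.42 (adjusted p = 0.00716) and Rplp0 by 0.33 (adjusted p = 0.018). With both trends removed Rps15 stood at 0.07 (adjusted p = 0.408) and Rplp0 at -0.04 (adjusted p = 0.619), and over protein-coding transcripts Rpl10a stood at 0.79 (adjusted p = 0.233). Rps16 had the largest called rise in response, 0.76 (SE 0.259, adjusted p = 0.0413). Its call was lost without any library but K27M DMSO replicate 3, H3WT DMSO replicate 1 or H3WT EPZ6438 replicate 2, at 0.0591 to 0.119. Rpl38 differed by 0.45 (adjusted p = 0.0165) and was lost without H3WT DMSO replicate 2, K27M DMSO replicate 1, H3WT EPZ6438 replicate 1 or 3 or K27M EPZ6438 replicate 2 or 3, at 0.052 to 0.0671.

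Rpl5 responded less in K27M cells, with a difference of -0.54 (SE 0.137, adjusted p = 0.0128), and Rpl17 had -1.45 (SE 0.357, adjusted p = 0.0111). Rpl5 stood at 0.01 with the GC trend removed (adjusted p = 0.973) and Rpl17 at 0.28 with its pseudogenes added (adjusted p = 0.423). Rpl7, of the large subunit, had -0.24 (adjusted p = 0.0484). The Rpl7 call was lost without any K27M DMSO library, H3WT EPZ6438 replicate 1 or 2 or K27M EPZ6438 replicate 1 or 3, at 0.056 to 0.076. Rpsa, Rps6, Rpl3, Rpl10, Rpl11, Rpl22, Rplp1, Rps4x and Rps27a did not pass; of these, Rpl11 passed without H3WT EPZ6438 replicate 2 (0.58, adjusted p = 0.0395), as did Rpl22 (0.19, adjusted p = 0.0184).

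K27M against H3WT cells under EPZ6438 asked whether the genotypes still differed with EZH2 inhibited. No ribosomal protein gene of 73 passed in either direction with edgeR, where 0.567% of all 13060 genes tested were higher and 1.23% lower. At an unadjusted p below 0.05, 3 were higher and 2 lower. The share of all genes at that unadjusted cutoff was not counted, so these 3 and 2 cannot be set against the shares above. With DESeq2 and adjustment, 1 was higher and 0 lower, against 0.743% and 1.24% of all genes. In the authors' deposited table, which tests each transcript, Rpl3-201 was lower in K27M cells (natural log effect -4.99, q = 0.00401), at or near 0 counts there. Rpl10a-202 was higher in K27M cells (0.54, q = 0.00969). Of all transcripts, 0.099% were higher and 0.378% lower at a q-value below 0.05. The median log2 fold change was 0.02, against 0.007 over all genes, and single genes ran from -0.35 to 0.38. Rpl10a was at the top, with 65.1 ± 5.82 CPM in K27M EPZ6438 libraries and 49.9 ± 2.22 CPM in H3WT EPZ6438 libraries (log2 fold change 0.38, adjusted p = 0.059). On the log2 scale Rps19 stood at 0.03 (SE 0.0847), Rplp0 at -0.00 (SE 0.0436) and Rplp1 at -0.05 (SE 0.0695). Rpl5 had 0.33 (SE 0.102, adjusted p = 0.167), with groups that did not overlap. Rpl10 had 0.20, Rpl11 0.29, Rps6 0.25, Rps27a 0.12, Rpl38 0.10 and Rplp2 0.04, and Rpl22 had -0.12, Rps4x -0.02, Rpsa -0.00 and Rpl3 -0.00. These 4 comparisons share libraries: each group serves in 2 of them, so their results are not independent of each other.

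Fold changes moved with GC content over all genes, and less with length. Over all genes the Spearman correlation of the log2 fold change with GC content was -0.70 for K27M against H3WT in DMSO, -0.41 for EPZ6438 in H3WT cells, 0.27 for EPZ6438 in K27M cells, -0.19 under EPZ6438 and 0.67 for the difference of the response. Over the ribosomal protein genes it was -0.54, -0.55, 0.06, 0.12 and 0.61 in the same order. With length the correlation over all genes was 0.291, 0.315, 0.0436, 0.119 and -0.279 in that order. Transcripts of the ribosomal protein genes had a median length of 743 bases and a median GC content of 51.4%, against 2930 bases and 50.4% over all genes tested in DMSO. The shortest 10% of all genes, under 1210 bases in that comparison, had a median log2 fold change of -0.20 in it, against -0.13 for the ribosomal protein genes.

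With the trends of each library with GC content and length removed together, 13 ribosomal protein genes rose in K27M against H3WT cells in DMSO, against 15.6% of all genes, and 12 fell, against 26.1%. For EPZ6438 in H3WT cells 25 rose, against 16% of all genes, and 2 fell, against 33.6%. For EPZ6438 in K27M cells 40 rose, against 21.5% of all genes, and 9 fell, against 40.7%, with a median of 0.17. The difference of the response was then higher in K27M cells for 6 genes, against 13.0% of all genes, and lower for 7, against 8.11%. With the GC trend alone removed, EPZ6438 in K27M cells gave 23 rises, against 21.1% of all genes, and 18 falls, against 40.3%. The median was then 0.04, against -0.08 over all genes. With GC alone removed, K27M against H3WT in DMSO kept 25 falls, against 27.1% of all genes, and had 8 rises, against 16.7%, with a median of -0.10. The difference of the response had 11 higher, against 13.0% of all genes, and 5 lower, against 8.47%, with a median of 0.16. The median over all genes moved too when GC alone was removed, from 0.01 to -0.08 for EPZ6438 in K27M cells. It was then -0.04 for K27M against H3WT in DMSO and 0.03 for the difference of the response. With both trends removed, the ribosomal protein genes had a median of 0.008 in DMSO, against -0.04 over all genes. For the difference they had 0.02, against 0.03, and for EPZ6438 in K27M cells 0.17, against -0.08. The part of these trends in the results was not tested.

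**Figure D4:**
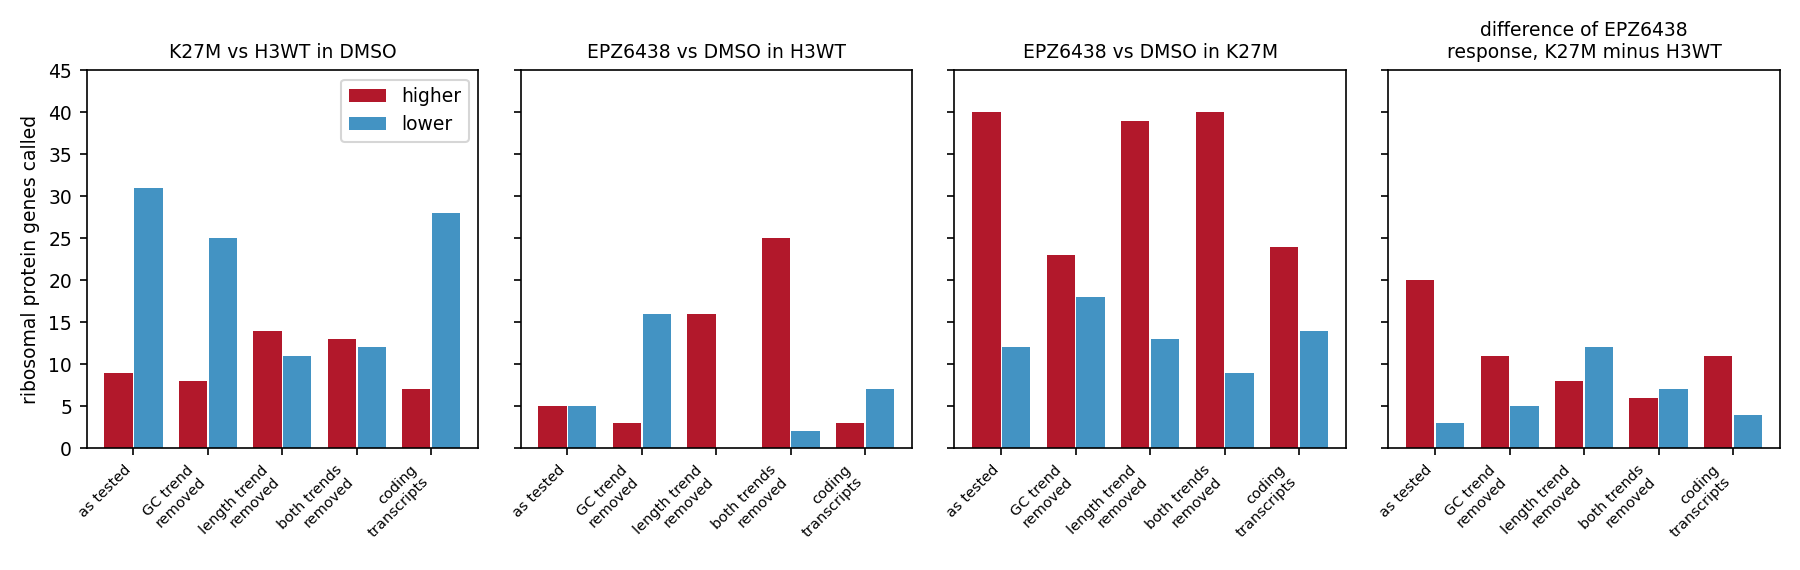
Number of ribosomal protein genes called higher and lower (vertical axis) in 4 comparisons, as tested, with GC content, length or both trends removed, and over protein-coding transcripts only. For EPZ6438 in K27M cells 40 rose and 12 fell as tested, 40 rose and 9 fell with both trends removed, and 23 rose and 18 fell with the GC trend removed.

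Summed levels of markers of other cell states differed between treated and control libraries in both genotypes. The summed level of 5 listed neuronal markers of 6 (Stmn2 was not listed) was 128 to 135 CPM in K27M EPZ6438 libraries and 54.7 to 57.2 CPM in K27M DMSO libraries. In H3WT cells it was 134 to 157 CPM under EPZ6438 and 54.3 to 57.5 CPM in DMSO. All 5 oligodendrocyte precursor markers were listed and summed to 1811 to 1934 CPM in K27M EPZ6438 and 2646 to 2854 CPM in K27M DMSO libraries, and to 1734 to 1968 CPM in H3WT EPZ6438 and 3251 to 3993 CPM in H3WT DMSO libraries. The 7 astrocyte markers summed to 2050 to 2128, 2453 to 2466, 2422 to 2594 and 2883 to 2895 CPM in K27M EPZ6438, K27M DMSO, H3WT EPZ6438 and H3WT DMSO libraries. The part of these shifts in the ribosomal protein results was not tested.

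Transcript starts were read to see which genes carry the TOP motif. Of the 75 genes, 54 had a promoter sequence in RefSeq (GRCm38.p6), with 64 starts. At 12 starts, in 12 genes, the first base was C and at least 4 pyrimidines followed, 18.75% of these starts against 2.505% of all 32851 starts in RefSeq. Those of 8 genes named in the results are shown with the pyrimidine run from the start in capitals, and Rpl5 and Rps19 are shown as genes without such a run at the annotated start; each has 15 bases before the start and 15 from it.
Rpl15: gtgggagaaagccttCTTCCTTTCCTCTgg
Rpl28: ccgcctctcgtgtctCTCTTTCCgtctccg
Rpl38: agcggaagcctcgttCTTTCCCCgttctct
Rplp2: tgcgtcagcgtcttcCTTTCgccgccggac
Rps10: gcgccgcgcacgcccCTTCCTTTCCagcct
Rps15a: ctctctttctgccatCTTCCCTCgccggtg
Rps21: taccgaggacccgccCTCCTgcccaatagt
Rps6: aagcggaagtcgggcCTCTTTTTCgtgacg
Rpl5: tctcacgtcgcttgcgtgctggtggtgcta
Rps19: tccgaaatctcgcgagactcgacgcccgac

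These stretches lie at chr14:18270972-18271001 on the minus strand (Rpl15), chr7:4792950-4792979 on the plus strand (Rpl28), chr11:114668565-114668594 on the plus strand (Rpl38) and chr7:141447636-141447665 on the plus strand (Rplp2). Those of Rps10, Rps15a and Rps6 are on the minus strand, at chr17:27635230-27635259, chr7:118116133-118116162 and chr4:86857353-86857382. Those of Rps21, Rpl5 and Rps19 are on the plus strand, at chr2:180257364-180257393, chr5:107900513-107900542 and chr7:24884577-24884606. Each stretch straddles a start annotated in RefSeq, which can lie inside the bounds that GENCODE gives the gene, as for Rpl15, Rps10 and Rps19, and can be 1 of several, as for Rps19 and Rps21. An annotated start can differ by a few bases from the start used by the cell, so the absence of a run in these letters says nothing about the mRNA.

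Of the 12 genes with a run, 10 rose and 2 fell under EPZ6438 in K27M cells, with a median of 0.24. Of the 42 without one, 25 rose and 3 fell, with a median of 0.16 (all genes, 28.9 and 27.3%). The 2 that fell were Rps21 and Rps15a. For K27M against H3WT cells in DMSO, 1 rose and 8 fell of the 12, with a median of -0.29. Of the 42, 4 rose and 19 fell, with a median of -0.19 (all genes, 29.8 and 30.4%). The difference of the response was higher for 5 of the 12 and for 14 of the 42 (all genes, 20%). No test was made between these sets. They hold only the 54 genes with a promoter sequence, so their counts do not stand for all 75. Of the 75, 40 rose and 12 fell under EPZ6438 in K27M cells, and 9 rose and 31 fell for K27M against H3WT in DMSO. In the 300 bases around a start (250 before and 50 from it), on both strands, CCGGAAG, the core of sites of ETS factors, was in 24 of the 64 windows, 37.5% against 8.858% of all windows. TATAAA was in 6 windows, 9.375% against 13.62%, and GATGGCGG, the core of sites of the factor YY1, in 4 windows, 6.25% against 1.699%. A match is a description of the sequence and not a bound site.

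Counts of these genes lay partly in transcripts that are not annotated as coding. By the GENCODE M21 annotation (GRCm38, the build of all gene positions given), transcripts that keep an intron held 10.2 ± 0.247% of the counts of ribosomal protein genes in K27M EPZ6438 libraries and 8.91 ± 0.17% in K27M DMSO libraries, and 9.37 ± 0.808% in H3WT EPZ6438 and 8.38 ± 0.239% in H3WT DMSO libraries (SD, n = 3 each). Over all genes the shares were 3.30% in K27M EPZ6438, 2.93% in K27M DMSO, 3.09% in H3WT EPZ6438 and 2.68% in H3WT DMSO libraries. Of 74 genes, 40 had over 90% of their counts in coding transcripts and 21 under 50%. Over coding transcripts alone, 24 genes rose and 14 fell for EPZ6438 in K27M cells, against 26.7 and 25.5% of all genes. For K27M against H3WT cells in DMSO, 7 rose and 28 fell, against 28.2 and 29.2% of all genes.

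In the authors' deposited table, which tests each transcript, 23 coding transcripts of ribosomal protein genes rose and 11 fell of 141 under EPZ6438 in K27M cells at a q-value below 0.05, against 5.82% higher and 7.78% lower of all transcripts. For K27M against H3WT cells in DMSO, the authors' deposited table had 3 of 141 coding transcripts higher and 24 lower, against 7.41% and 8.33% of all transcripts. Among transcripts that keep an intron, 6 rose and 1 fell of 91 under EPZ6438 in K27M cells in the authors' deposited table, against 2.28 and 1.25% of all transcripts of that kind.

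Rpl3 changed in its transcripts but not in its sum. The gene lies at chr15:80077791-80091868 on the minus strand. Its coding transcript Rpl3-201, of 1351 bases, was estimated at 0.194, 0 and 0 CPM in K27M EPZ6438 libraries and at 16.7, 12.3 and 20.3 CPM in K27M DMSO libraries. It was estimated at 14.0, 14.3 and 7.30 CPM in H3WT EPZ6438 libraries and at 22.9, 34.1 and 31.6 CPM in H3WT DMSO libraries. The K27M EPZ6438 libraries thus stood below all 9 others.

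Rpl3-204, which keeps intron 3 of 9 (583 bases, chr15:80081032-80081614), went the other way under EPZ6438. It had 64.4, 63.1 and 54.8 CPM in K27M EPZ6438 libraries and 44.8, 49.4 and 41.8 CPM in K27M DMSO libraries, and 61.3, 54.5 and 51.5 CPM in H3WT EPZ6438 and 41.7, 48.1 and 47.9 CPM in H3WT DMSO libraries. In both genotypes the treated libraries lay above the controls. In the authors' deposited table the effect of EPZ6438 in K27M cells on the natural log scale was -5.66 for Rpl3-201 (SE 1.03, q = 9.28e-07) and 0.26 for Rpl3-204 (q = 0.00142), and that of K27M against H3WT in DMSO for Rpl3-201 was -0.60 (q = 0.0143). An exact 0 can be a failed estimate of how reads shared by transcripts were divided, and Rpl3 as a gene did not pass in any of the 5 comparisons.

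Rpl10a rose through transcripts that keep introns. Rpl10a-202, which keeps intron 3 (326 bases, chr17:28329048-28329373), had 19.0, 23.5 and 21.6 CPM in K27M EPZ6438 libraries and 9.43, 7.49 and 9.89 CPM in K27M DMSO libraries. It had 12.7, 11.46 and 12.5 CPM in H3WT EPZ6438 libraries and 12.7, 12.6 and 14.4 CPM in H3WT DMSO libraries, so it stood highest under EPZ6438 in K27M cells and lowest in K27M DMSO cells. Rpl10a-204, which keeps intron 4 of 5 (1002 bases, chr17:28329523-28330524), had 27.4, 29.1 and 29.6 CPM in K27M EPZ6438 libraries and 18.6, 20.2 and 19.3 CPM in K27M DMSO libraries. The coding Rpl10a-201 had 0.785, 0.754 and 1.37 CPM in K27M EPZ6438 libraries and 0.961, 1.02 and 1.49 CPM in K27M DMSO libraries, with overlap. In the authors' deposited table Rpl10a-202 had an effect of 0.84 (q = 1.23e-12) and Rpl10a-204 of 0.36 (q = 8.37e-07) for EPZ6438 in K27M cells, on the natural log scale.

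**Figure D5:**
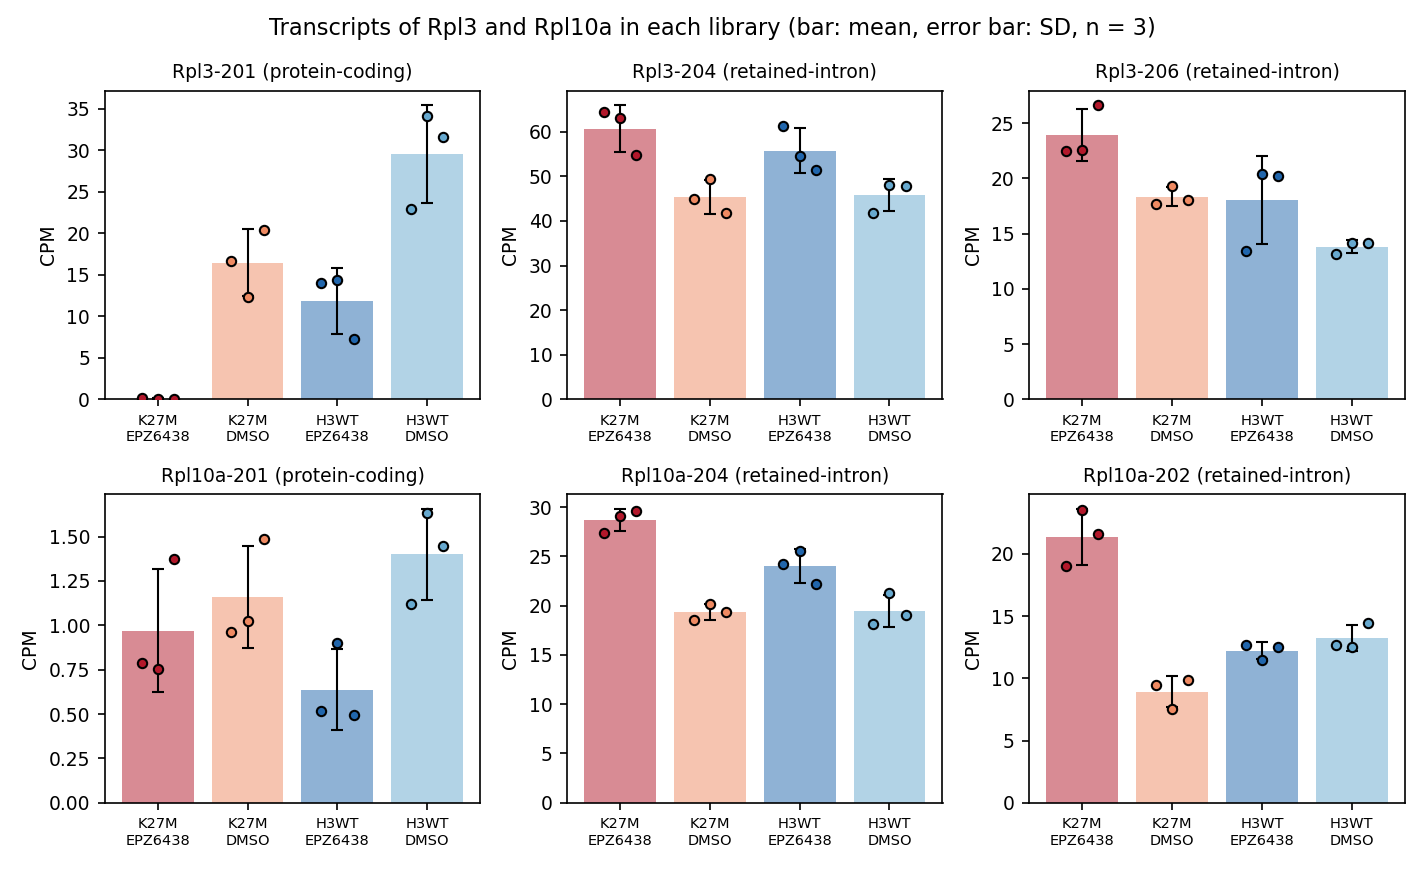
Levels of 3 transcripts each of Rpl3 and Rpl10a (vertical axis, CPM; points, libraries; bars, means; error bars, SD over n = 3) in K27M EPZ6438, K27M DMSO, H3WT EPZ6438 and H3WT DMSO cells. The coding Rpl3-201 lay at 0.194 CPM or below in K27M EPZ6438 libraries and at 7.30 to 34.1 CPM in all others, while Rpl10a-202 and Rpl10a-204 were higher in K27M EPZ6438 than in K27M DMSO libraries.

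Other changes lay in coding transcripts. Rpl5-201 (2045 bases) had 33.3, 28.0 and 38.5 CPM in K27M EPZ6438 libraries, 20.8, 23.2 and 19.97 CPM in K27M DMSO libraries, 22.2, 27.6 and 23.5 CPM in H3WT EPZ6438 libraries and 8.08, 10.2 and 11.2 CPM in H3WT DMSO libraries. It was lowest in H3WT DMSO libraries, as the gene was. Rpl15-202 (1922 bases) had 72.3, 61.9 and 64.8 CPM in K27M EPZ6438 libraries and 46.2, 44.7 and 44.0 CPM in K27M DMSO libraries, and 62.8, 66.0 and 63.7 CPM in H3WT EPZ6438 and 42.7, 43.2 and 45.3 CPM in H3WT DMSO libraries. Treated and control libraries of Rpl15-202 did not overlap in either genotype, and the authors' deposited table had effects of 0.35 in both on the natural log scale (q = 4.5e-16 in K27M and 5.14e-05 in H3WT cells). Most counts of Rps19 lay in Rps19-205, annotated as a target of nonsense-mediated decay, with 127, 125 and 119 CPM in K27M EPZ6438 libraries and 97.5, 91.4 and 101 CPM in K27M DMSO libraries. Over coding transcripts alone Rps19 still rose under EPZ6438 in K27M cells, by 0.74 (adjusted p = 0.00147).

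Genes that work with the ribosome were counted against the same shares of all genes, 28.9% higher and 27.3% lower for EPZ6438 in K27M cells. Of 39 ribosome biogenesis genes, 19 rose and 4 fell, and of 17 genes of translation elongation and other TOP mRNAs, 2 rose and 7 fell. Of 25 initiation factors 4 rose and 8 fell, of 17 genes of RNA polymerase I 5 rose and 2 fell, and of 17 genes of mTORC1 and S6 kinase signalling 1 rose and 7 fell, among them Eif4ebp1, a translation repressor that mTORC1 switches off (log2 fold change -0.60, adjusted p = 3.17e-05). Rises of RNA polymerase I genes and falls of initiation factors lie near the shares of all genes, and the other direction of each lies below them. Of 78 mitochondrial ribosomal protein genes 9 rose and 41 fell, and of 38 proteasome genes 3 rose and 21 fell. For EPZ6438 in H3WT cells, 1 mitochondrial ribosomal protein gene rose and 48 fell of 78 (all genes, 21.4 and 20.7%), and for K27M against H3WT cells in DMSO 2 rose and 46 fell (all genes, 29.8 and 30.4%).

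Of the 9 genes around the 5S particle and p53, 6 rose and 1 fell for EPZ6438 in K27M cells (all genes, 28.9 and 27.3%) and 3 rose and 1 fell in H3WT cells (all genes, 21.4 and 20.7%). Mdm2 rose by 0.54 in K27M cells (adjusted p = 1.06e-06) and by 0.53 in H3WT cells (adjusted p = 0.00959). Cdkn1a, a p53 target, rose by 0.92 (adjusted p = 4.38e-09) in K27M and by 0.28 (adjusted p = 0.0287) in H3WT cells. Among ribosomal protein genes outside the naming rule, Fau, a fusion with a small subunit protein, rose by 0.44 (adjusted p = 0.0055) for EPZ6438 in K27M cells, while Rps3a1 had 0.07 (adjusted p = 0.111). Rps27l, a p53-induced relative of Rps27, rose by 0.39 (adjusted p = 3.44e-05), and Rpl22l1, the paralog of Rpl22, by 0.19 (adjusted p = 0.0271). Rpl36al fell by 0.20 (adjusted p = 0.0499), and Rpl7l1 had -0.04 (adjusted p = 0.311).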

How the data were processed

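The ribosomal protein genes and the gene lists were chosen with earlier results of these data known. The submitters' processing notes name kallisto (transcript quantification), sleuth (testing) and the builds GRCm38 and mm10, without versions. The annotation and the strand setting used are not stated. Libraries were made with a TruSeq polyA kit, per the labels' protocols. The authors deposited 4 tables, 1 for each pair of groups, of transcripts in lines. Their columns, per the file headers, are estimated counts by library, p-value, q-value and an effect as a natural log. Each library's deposited estimated counts had been scaled by a factor, found from the step between low values and undone: 43.9 to 56.4% of low values of single-transcript genes were then whole (tolerance 0.01), and a library agreed between tables within a relative 1.04e-10. The column of K27M DMSO replicate 1 has another prefix in its name than the other 11.

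Counts were summed per gene, rounded and tested per pair of groups with edgeR 4.0.16 in R 4.3.3 (filterByExpr, TMM, glmQLFTest, two-sided, Benjamini-Hochberg over all genes). The difference of the inhibitor response was the interaction over 12 libraries and the 34436 transcripts listed in all tables of 44294 in any. Of the 75 genes, 75, 73, 75, 73 and 74 were tested in K27M against H3WT in DMSO, EPZ6438 in H3WT, EPZ6438 in K27M, K27M against H3WT under EPZ6438, and the difference; Rpl23a or Rps4l was missing otherwise. Levels per library are normalized over all 12 libraries, and fold changes, means ± SD beside them and adjusted p-values come from each pair's fit. Lines without a gene name were left out (0.45 to 0.577% of counts). Transcripts that a table does not list are not analysed here. The rule for names was, for each comparison, the 4 largest called rises, the 4 largest called falls, 14 fixed names, Rps4l and related genes outside the rule; those that did not pass are given in part as a range or as a list, and genes beyond these, and the transcripts, were chosen after their values were seen. Alternatives were other normalizations, DESeq2 1.42.0, filters, the most abundant transcript, pseudogenes added, GC content and length trends (a spline of 6 degrees of freedom, added in part after seeing the data, as were coding transcripts only), thinning, a replicate block and each library left out. The tests were also tried on simulated counts, made with the same dispersion value for all genes and no GC trend. Their outcome is not given. Results of some genes are not reported here.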

Additional observations from a re-analysis of the deposited data

Results flagged for a closer look

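Of 74 ribosomal protein genes, 20 responded higher to the inhibitor in K27M than in H3WT cells and 3 lower (edgeR interaction term). Over all genes the shares were 20% and 15.8%. With the trends of GC content and length both removed, 6 responded higher and 7 lower, against 13.0% and 8.11% of all genes. On the log2 scale, K27M minus H3WT, the difference was 0.76 for Rps16, 0.61 for Rpl10a, 0.58 for Rps19, 0.55 for Rps15, 0.45 for Rpl38, 0.42 for Rplp2 and 0.33 for Rplp0. It was -0.24 for Rpl7, -0.54 for Rpl5 and -1.45 for Rpl17. Rpl17 stood at 0.28 with its pseudogenes added and Rpl5 at 0.01 with the GC trend removed. The calls of Rps16, Rpl38 and Rpl7 were lost when single libraries were left out.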

How the results depend on the processing

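Percentages in brackets are shares of all genes called the same way. For the authors' q-values on the top transcript no such share was counted, so those counts have no background. For K27M against H3WT in DMSO (9 higher, 31 lower, median -0.13), upper-quartile factors gave 5 higher (25.8%) and a median of -0.21. The length trend removed gave 14 and 11 (23.1 and 34.4%) with -0.031. Both trends removed gave 12 lower (26.1%) with 0.0077, and the authors' q-values on the top transcript gave 2 and 20. The median was -0.10 with the top transcript, with the GC trend removed and with that and the replicate block, -0.18 with thinned libraries and -0.21 over coding transcripts. Leaving out 1 library gave 5 to 10 higher (16.5 to 34.35%), 19 to 36 lower (21.1 to 34.6%) and medians of -0.18 to -0.11.

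For EPZ6438 in H3WT cells (5 and 5, median -0.06), the GC trend removed gave 3 and 16 (16.62 and 34.65%). The length trend removed gave 16 and 0 (13.81 and 30.7%) with 0.13. Both removed gave 25 and 2 (15.98 and 33.61%) with 0.16. Coding transcripts gave 3 higher (19.99%), the top transcript 2 lower (15.36%) and the authors' q-values 2 and 2. Leaving out 1 library gave 2 to 5 higher (12.91 to 30.04%), 0 to 17 lower (12.88 to 29.37%) and medians of -0.14 to -0.018. For EPZ6438 in K27M cells (40 and 12, median 0.16), the top transcript gave 21 higher (20.8%) and the GC trend removed 23 (21.1%) with 0.037. Coding transcripts gave 24 (26.7%) with 0.14, the authors' q-values 14, and upper-quartile factors a median of 0.19. Leaving out 1 library gave 31 to 37 higher (24.6 to 27.5%), 11 to 12 lower (24.0 to 27.8%) and medians of 0.12 to 0.17.

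Between genotypes under EPZ6438 (0 and 0), DESeq2, the GC trend, the length trend, both trends and the block each gave 1 higher (0.452 to 2.80%). Coding transcripts gave 1 lower (0.695%). Leaving out 1 library gave 0 to 0, with medians of -0.014 to 0.076. For the difference of the response (20 and 3, median 0.19), the top transcript gave 4 higher (12.7%) with 0.11. The GC trend removed gave 11 and 5 (13.0 and 8.47%), and the length trend removed 8 and 12 (21.35 and 13.0%) with 0.022. Coding transcripts gave 11 higher (16.8%), both trends removed 6 and 7 (13.0 and 8.11%) with 0.018, and thinning a median of 0.13. Leaving out 1 library gave 12 to 27 higher (12.9 to 23.1%), 2 to 5 lower (11.7 to 28.9%) and medians of 0.090 to 0.23.

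Same-numbered libraries deviated together in part: for EPZ6438 in H3WT cells with correlations of 0.235, 0.259 and 0.0104, between genotypes under EPZ6438 with 0.13, 0.102 and -0.0142, and otherwise with -0.0137 to 0.081. No comparison had all 3 pairs over 0.1, so the numbers were not taken to pair libraries. A replicate block gave 9 lower for EPZ6438 in H3WT cells and 1 higher between genotypes under EPZ6438; over all genes it gave 3946 higher and 3186 lower in the first, against 2752 and 2668 without it, and 249 and 290 in the second, against 74 and 160. Block and GC trend together gave 24 lower for EPZ6438 in H3WT (38.6% of all genes). In K27M cells they gave 23 higher and 19 lower (21.4 and 40.7%) with a median of 0.038. They gave 1 higher between genotypes under EPZ6438 (2.63%) and 5 lower for the difference (9.555%). Rpl22 then stood at -0.17 in H3WT, Rplp0 at -0.048 in K27M cells and Rpl5 at 0.032 in the difference.

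Signs turned for single genes as follows. With pseudogenes added, Rpl17 stood at -0.068 for K27M against H3WT in DMSO, 0.14 for EPZ6438 in K27M and 0.28 for the difference. With both trends removed, Rplp0 stood at 0.022 and Rpl38 at 0.027 in the first, Rps10 at 0.031, Rps15 at 0.10, Rplp0 at 0.12, Rplp2 at 0.20 and Rps19 at 0.18 for EPZ6438 in H3WT, and Rplp0 at -0.037 for the difference. With the top transcript, Rps27a stood at -0.0039 and Rpl3 at 0.31 for EPZ6438 in H3WT, and Rpl22 at -0.18 in K27M. With the GC trend removed, Rpl22 stood at -0.17 in H3WT, Rplp0 at -0.048 in K27M and Rpl5 at 0.015 for the difference. Over coding transcripts, Rpl10a stood at -0.31, Rpl3 at -7.585 and Rpl10 at -1.99 for EPZ6438 in K27M, and Rpl3 at -6.31 for the difference. Of 47 calls of named genes, 11 held under every setting, with effects centred on the median gene judged by sign alone. The cause of these changes was not tested.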
